A study of Rattus norvegicus with 9 samples.

Results

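The serum response factor (SRF), the myocyte enhancer factor 2 (MEF2) proteins and the cAMP response element binding protein (CREB) are transcription factors that neurons hold before a stimulus arrives. The genes described here are Srf, its partner Elk1, Mef2a, Mef2c, Mef2d, Creb1, the related Atf1 and Atf2, and Crebbp, which encodes the coactivator CBP. The members were all array probes that the files name for 1 of these 9 genes. The names gave 12 probes for 7 genes, out of 41012 probes on the array; Mef2a and Mef2c carry no probe under those names. All 12 passed the filter on dim probes, as did 30321 probes in all.

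RNA of dissociated cortical neurons from prenatal rat pups, used at 11 to 15 days in culture, was hybridised to 9 arrays in a single colour, with 3 arrays for each group. The cells of all 3 groups had spent 48 h in tetrodotoxin (TTX), which blocks voltage-gated sodium channels and so silences action potentials. Cells of the TTX group were harvested with the toxin still present, and the others 15 min or 45 min after 3 washes with medium had removed it. The labels do not say whether the replicates are separate cultures, so p-values measure the spread between these samples, which may be technical.

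SRF binds CArG boxes in the promoters of immediate early genes. Elk1 binds DNA beside SRF and turns transcription on once the MAP kinase ERK has phosphorylated it. MEF2 proteins are released from class IIa histone deacetylases when calcium activates calcium-dependent kinases. CREB, and its relatives ATF1 and ATF2, bind cAMP response elements, and phosphorylation by calcium- or cAMP-dependent kinases lets CREB recruit CBP, a histone acetyltransferase. Each of these steps acts on protein that is already made, and an array of messenger RNA does not measure them.

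The promoters show the DNA element that SRF reads, both in a target gene and in Srf itself. RefSeq promoter windows (GRCr8 build, 250 bases before to 50 after a start site) were available for 7 of the 9 genes and for 14 of 17 rapid target genes named further on. They were searched on both strands for the CArG box (CC, then 6 bases A or T, then GG), the cAMP response element TGACGTCA, its shorter core TGACG and the MEF2 site (C or T, then TA, then 4 bases A or T, then TA, then A or G). The full element contains the core. Positions count from the start site. In the 250 bases before the start of Srf (chr9:21923826-21924075, plus strand), a pair of CArG boxes, in capitals, lies at -81 to -72 and -61 to -52. In Egr1 (chr18:26736828-26737077, plus strand), a zinc-finger gene induced by SRF, the boxes lie at -105 to -96 and -83 to -74.

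Srf: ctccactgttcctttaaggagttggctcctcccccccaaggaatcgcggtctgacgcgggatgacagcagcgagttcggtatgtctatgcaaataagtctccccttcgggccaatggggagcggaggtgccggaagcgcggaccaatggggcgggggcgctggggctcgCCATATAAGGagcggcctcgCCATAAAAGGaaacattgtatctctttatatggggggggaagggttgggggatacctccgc
Egr1: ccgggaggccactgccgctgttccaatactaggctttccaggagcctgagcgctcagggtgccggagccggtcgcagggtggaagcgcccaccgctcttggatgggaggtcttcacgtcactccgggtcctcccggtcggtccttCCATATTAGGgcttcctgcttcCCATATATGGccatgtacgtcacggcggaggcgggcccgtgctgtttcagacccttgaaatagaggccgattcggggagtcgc

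Of 33469 promoter windows of that length, 548 (1.64%) held a CArG box and 7 (0.0209%) held 2 or more. Among the genes with a window, Srf was the 1 member with a CArG box, and Egr1 and Egr2 were the 2 target genes with one. Fos, Arc and Egr3 had no window and were not searched, nor were the members Mef2c and Atf1. The window of Mef2a (its printed part chr1:130392163-130392412, minus strand) held 1 MEF2 site, at -40 to -31, as did 3.29% of all windows. The first of the 2 windows of Creb1 (printed part chr9:73397259-73397508, plus strand) held 3 cores, of which those at -80 to -76 and -59 to -55 are in capitals and the third lies at 9 to 13. The second Creb1 window held 0 cores. The core was in 21.2% of all windows, and the full element, which no member held, in 1.83%. A match describes these letters only. Srf, Mef2a and Creb1 are shown because a window of each holds an element of its own family, for Creb1 only the common core. Egr1 is shown as a target gene.

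Mef2a: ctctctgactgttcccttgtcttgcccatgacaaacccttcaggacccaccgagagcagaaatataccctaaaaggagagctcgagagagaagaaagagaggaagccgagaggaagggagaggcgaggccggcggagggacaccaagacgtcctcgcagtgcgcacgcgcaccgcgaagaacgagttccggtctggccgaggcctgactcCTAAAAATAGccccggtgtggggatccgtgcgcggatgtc
Creb1: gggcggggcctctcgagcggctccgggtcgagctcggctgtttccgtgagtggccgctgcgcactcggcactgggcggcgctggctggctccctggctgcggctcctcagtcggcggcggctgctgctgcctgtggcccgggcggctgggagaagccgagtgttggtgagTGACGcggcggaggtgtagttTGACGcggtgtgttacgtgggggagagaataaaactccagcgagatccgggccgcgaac

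All 12 member probes stood well above background on all 9 arrays, the 3 TTX arrays included, so these transcripts were measured in silenced neurons before any washout. None of the 12 was called higher or lower by limma (Benjamini-Hochberg adjusted p under 0.05 over 30321 probes) at 15 min or at 45 min. At 15 min the same test called 0.0198% of all probes higher and 0% lower; at 45 min it called 0.175% higher and 0.0231% lower. At an unadjusted p under 0.05, 0 members passed at 15 min against 3.36% of all probes, and at 45 min 3 did (1 higher, 2 lower) against 6.37%. In these whole cultures, a change in the share of a cell type and a change in RNA per cell cannot be told apart.

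The signal is given as log2 of the processed signal minus the 75th percentile of that array, so a value of 0 is that percentile. Levels of different probes are not comparable, since probes differ in how well they hybridise. The arrays had 72.4 to 77.9% of probes well above background, and their 75th percentile signal lay between 1563 and 2526. Summed signals of 8 neuron markers spanned 106 to 132 times the 75th percentile in TTX, 113 to 139 at 15 min and 100 to 130 at 45 min. Those of 5 astrocyte markers spanned 63.7 to 76, 65.6 to 72.8 and 55.6 to 79.7, and those of 5 oligodendrocyte markers 6 to 9.83, 5.92 to 11.9 and 5.64 to 10.4. Of 5 microglia markers, Itgam, Aif1 and Cx3cr1 were not kept, and the other two summed to 0.00795 to 0.0308 in TTX, 0.0175 to 0.0314 at 15 min and 0.0124 to 0.0276 at 45 min. Of 4 endothelial markers, Pecam1 was not kept, and the others summed to 0.212 to 0.262, 0.207 to 0.257 and 0.219 to 0.293. None of the marker genes was called by limma in either comparison with TTX; the microglial complement gene C1qa alone had an unadjusted p under 0.05, 0.0367 at 15 min (limma adjusted p 0.988). C1qa was well above background on 3 of 3 arrays at 15 min and on 0 of 3 in TTX and at 45 min. It thus entered the fit only through the 15 min group, where it is high, so its p and fold are no independent evidence of a rise. Against a TTX limit, the ratio of the C1qa mean was 1.57 at 15 min and 0.862 at 45 min. For that limit each TTX array was taken at the higher of the C1qa signal and the lowest signal well above background. These are ratios of means near background, given without an error. The part of C1qa in the members' values was not tested.

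**Figure D1:**
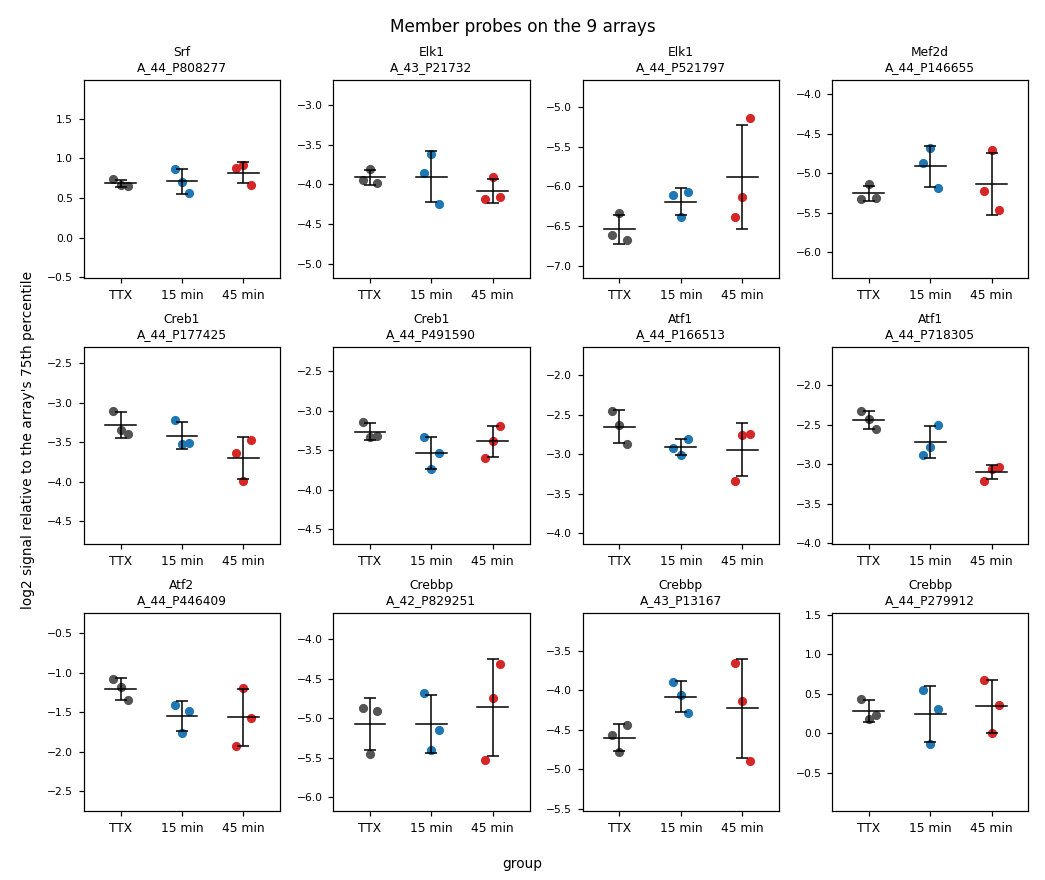
Log2 signal (vertical axes, relative to the 75th percentile of each array, each spanning 2.5 log2 units) of the 12 member probes in the TTX, 15 min and 45 min groups. Points are the 3 arrays of a group in replicate order, the horizontal line is the mean and the bar the SD; for Atf1 probe A_44_P718305 the 45 min arrays lie below all TTX arrays, while most panels overlap.

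Srf encodes the factor that binds the CArG boxes. The files name 1 probe for it, A_44_P808277 (chromosome 9, 9748372 to 9748431 in the rn3 build used by the files). Its log2 signals were 0.74, 0.67 and 0.65 in TTX, 0.87, 0.70 and 0.56 at 15 min, and 0.88, 0.92 and 0.67 at 45 min. The groups overlapped. Against TTX this probe differed by 0.03 ± 0.13 at 15 min and by 0.14 ± 0.13 at 45 min (log2, SE, n = 3 arrays per group), with limma adjusted p values of 0.998 and 0.912. The 95% interval at 45 min ran from 0.894-fold to 1.35-fold.

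The RefSeq gene table lists RGD1559787 as a synonym of Srf, and the files carry 3 further probes under that older name. They lie within 6615 bases of each other and 39847 bases from the probe the files call Srf, and which of the 4 reads the Srf transcript was not settled, since no annotation of the rn3 build was used here. The values of A_44_P808277 are therefore those of the probe the files name Srf, and may not be those of the Srf transcript. A_44_P143061 had log2 signals of -2.55, -2.67 and -2.43 in TTX, -2.46, -2.67 and -2.58 at 15 min, and -1.99, -1.95 and -2.10 at 45 min. All its 45 min arrays lay above all arrays of the other two groups. Its 45 min difference from TTX was 0.54 ± 0.13 (log2, SE), a 1.45-fold difference with an interval of 1.19 to 1.76, an unadjusted p of 0.00188 and an adjusted p of 0.348 in the limma fit over all probes. Its step from 15 to 45 min was 0.56 ± 0.13, with an adjusted p of 0.35 by limma.

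A second synonym probe, A_43_P10479, had TTX signals of -5.75, -5.37 and -5.68, 15 min signals of -5.11, -5.44 and -4.83, and 45 min signals of -5.04, -4.87 and -5.17. At 15 min it differed by 0.47 ± 0.18 (log2, SE), 1.39-fold with an interval of 1.04 to 1.85, an unadjusted p of 0.0299 and an adjusted p of 0.988 by limma, and its arrays overlapped with TTX. Its 45 min arrays lay above its TTX arrays, by 0.57 ± 0.18 on the log2 scale (SE; unadjusted p 0.0121, adjusted p 0.64, limma). The third, A_43_P15205, had TTX signals of 3.93, 4.15 and 3.93 and 45 min signals of 4.10, 4.54 and 4.29, which overlap, and differed by 0.31 ± 0.15 (unadjusted p 0.0636, adjusted p 0.78, limma). Thus 3 of 3 synonym probes were higher at 45 min in the mean, and none passed the limma test after adjustment. The median difference of all probes was also positive, 0.044. Of the 3 probes, 2 did not overlap with TTX, as was so for 11.6% of all probes in either direction. They are given to the same gene and correlated at r = 0.524, 0.482 and 0.638 over the arrays, so they are not separate results. These probes were not chosen by the files' name Srf, and they are described here because the gene table gives them to Srf.

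Elk1, the ETS-family partner that SRF recruits, has 2 named probes on chromosome X. A_43_P21732 (12605361 to 12605420, rn3) had log2 signals of -3.95, -3.80 and -3.98 in TTX, -3.85, -3.61 and -4.25 at 15 min, and -4.19, -3.91 and -4.16 at 45 min, which overlap. A_44_P521797 (12603032 to 12603091) had -6.61, -6.33 and -6.68 in TTX, -6.11, -6.39 and -6.07 at 15 min, and -6.38, -6.13 and -5.13 at 45 min. For this probe the third 45 min array lay far above the other two, and the groups overlapped. The first probe differed at 45 min by -0.18 ± 0.18 and the second by 0.66 ± 0.29 (log2, SE; adjusted p 0.917 and 0.778 by limma). Without the third 45 min array the second probe differed by 0.28. Across the 9 arrays the 2 Elk1 probes correlated at r = -0.376, a description over arrays that share their scaling. A probe that the files describe as a partial Elk1 protein, A_44_P579054, differed by -0.24 ± 0.16 at 45 min, with an adjusted p of 0.852 by limma.

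Among the MEF2 genes, Mef2d was measured under its own name by A_44_P146655 (chromosome 2, 180189961 to 180190020, rn3). Its log2 signals were -5.32, -5.14 and -5.31 in TTX, -4.87, -4.68 and -5.19 at 15 min, and -5.23, -4.71 and -5.47 at 45 min. The groups overlapped, although 2 of the 15 min arrays were above all TTX arrays. It differed by 0.34 ± 0.21 at 15 min and 0.12 ± 0.21 at 45 min (log2, SE), with adjusted p values of 0.988 and 0.953 by limma.

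The gene table gives 2 probes that the files call LOC309957, and describe as similar to MEF2C, to Mef2a. A_44_P435422 differed from TTX by -0.09 ± 0.22 at 15 min and -0.31 ± 0.22 at 45 min, and A_44_P752074 by 0.12 ± 0.29 and -0.17 ± 0.29 (log2, SE). None of the 4 differences was called by limma, where their adjusted p values ran from 0.861 to 0.994. Mef2c, a MEF2 gene known from cortical neurons, is represented by probes that the files describe only as similar to it. One of them, A_44_P323661, had log2 signals of -2.53, -2.50 and -2.34 in TTX and -2.51, -3.66 and -2.97 at 45 min. The second 45 min array was the lowest, and the groups overlapped; the difference was -0.59 ± 0.26 (adjusted p 0.778 by limma), and -0.29 without that array. The other, A_44_P489806, differed by 0.18 ± 0.22 (adjusted p 0.937), so the pair gave opposite signs.

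**Figure D2:**
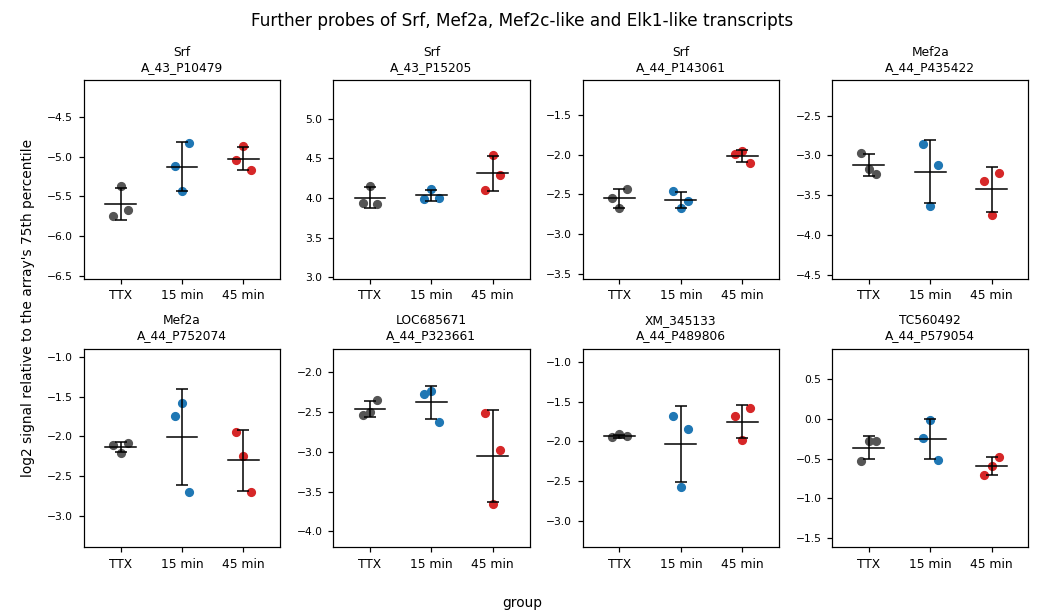
Log2 signal (vertical axes, relative to the 75th percentile of each array, each spanning 2.5 log2 units) of 8 further probes by group: 3 of Srf by synonym, 2 of Mef2a by accession, 2 described as similar to Mef2c (LOC685671 and XM_345133) and 1 described as Elk1 (TC560492). Points are arrays, lines means and bars SD; in Srf probe A_44_P143061 the 45 min arrays stand above the other groups.

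Creb1 encodes CREB and has 2 probes on chromosome 9. They overlap in 52 of 60 bases and are therefore close to repeat measurements. A_44_P177425 (63381610 to 63381669, rn3) had log2 signals of -3.10, -3.35 and -3.40 in TTX, -3.22, -3.52 and -3.51 at 15 min, and -3.64, -3.98 and -3.47 at 45 min. All 45 min arrays of this probe lay below all TTX arrays, and the difference was -0.42 ± 0.17 (log2, SE; unadjusted p 0.0366, adjusted p 0.765, limma).

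The other, A_44_P491590 (63381602 to 63381661), is printed in 10 spots per array and had -3.14, -3.33 and -3.32 in TTX, -3.33, -3.74 and -3.53 at 15 min, and -3.59, -3.38 and -3.19 at 45 min. Here the 45 min arrays overlapped with TTX. Its 45 min difference was -0.12 ± 0.16 (log2, SE; adjusted p 0.939 by limma), so nearly the same stretch of Creb1 did not give the same separation.

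Atf1, a close relative of CREB that pairs with it, had the most negative mean difference among the members at 45 min. Its probe A_44_P718305 (chromosome 7, 139089927 to 139089986, rn3) had log2 signals of -2.33, -2.43 and -2.55 in TTX, -2.88, -2.79 and -2.50 at 15 min, and -3.21, -3.07 and -3.03 at 45 min. The 45 min arrays lay below all TTX and all 15 min arrays. The 45 min difference from TTX was -0.67 ± 0.14 (log2, SE, n = 3), that is 0.631-fold with an interval of 0.506 to 0.786. Its unadjusted p was 0.001 and its adjusted p 0.244 in the limma fit, and over the alternatives the adjusted p of this probe was never below 0.153. On slide 1 alone, with 1 array per group, the difference was -0.88, and with slide as a fixed block it was -0.72. Both values rest on TTX replicate 1 alone. In the same settings Crebbp probe A_42_P829251, alone among the member probes, turned sign at 45 min, from 0.215 to -0.655 and -0.359.

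The second Atf1 probe, A_44_P166513, which the files place across 139055902 to 139071799, had -2.45, -2.63 and -2.87 in TTX, -2.92, -3.01 and -2.81 at 15 min, and -3.33, -2.75 and -2.75 at 45 min. Its groups overlapped, and it differed by -0.30 ± 0.19 at 45 min (log2, SE; adjusted p 0.84 by limma). The 2 Atf1 probes correlated at r = 0.678 over the 9 arrays, which is given as a description.

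Atf2 encodes a factor that binds the same element and is activated by stress kinases. Its probe A_44_P446409 (chromosome 3, 56329042 to 56329101, rn3) had log2 signals of -1.08, -1.18 and -1.35 in TTX, -1.41, -1.76 and -1.48 at 15 min, and -1.92, -1.20 and -1.58 at 45 min. All 15 min arrays lay below all TTX arrays, whereas the 45 min arrays overlapped with them. The differences were -0.35 ± 0.19 and -0.36 ± 0.19 (log2, SE), with adjusted p values of 0.988 and 0.81 by limma.

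Crebbp has 3 probes on chromosome 10. A_44_P279912 (11723639 to 11723698, rn3; 10 spots per array) had log2 signals of 0.44, 0.18 and 0.24 in TTX, 0.55, -0.13 and 0.31 at 15 min, and 0.67, 0.00 and 0.36 at 45 min, with overlap throughout. Its difference at 45 min was 0.06 ± 0.22 (log2, SE; adjusted p 0.983 by limma). A_43_P13167, placed across 11655913 to 11673990, had -4.57, -4.79 and -4.45 in TTX, -3.90, -4.07 and -4.29 at 15 min, and -3.66, -4.13 and -4.90 at 45 min.

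The 15 min arrays of A_43_P13167 lay above its TTX arrays, by 0.52 ± 0.28 (log2, SE; adjusted p 0.988 by limma), while at 45 min the third array lay below all TTX arrays. The third Crebbp probe, A_42_P829251 (11722729 to 11722787), differed by 0.01 ± 0.32 at 15 min and 0.22 ± 0.32 at 45 min, with adjusted p values of 1 and 0.947 by limma. Pairs of Crebbp probes correlated at r = -0.368, 0.101 and 0.22 over 9 arrays, so these probes did not move together.

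Over the 12 member probes, the differences at 15 min ranged from -0.35 to 0.52 with a median of -0.02, against a median of 0.04 over all probes. At 45 min they ranged from -0.67 to 0.66 with a median of -0.03, against 0.04. The median size of the difference, sign aside, was 0.266 and 0.255 for the members and 0.136 and 0.145 for all probes, with a median SE of 0.191 and 0.187. Groups of 3 arrays failed to overlap for 2 of 12 members at 15 min, against 13.9% of all probes, and for 2 of 12 at 45 min, against 11.6%. The 95% interval stayed within 2-fold either way for 10 of the 12 at 15 min and 11 of the 12 at 45 min. The largest upper bound at 45 min was 2.48-fold, for Elk1 probe A_44_P521797. From 15 to 45 min none of the 12 was called by limma, where 0.119% of all probes were higher and 0.00989% lower. In that step 1 member, Atf1 probe A_44_P718305, had an unadjusted p under 0.05, against 6.61% of all probes, and its arrays alone among the 12 did not overlap, against 8.07% of all probes.

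**Figure D3:**
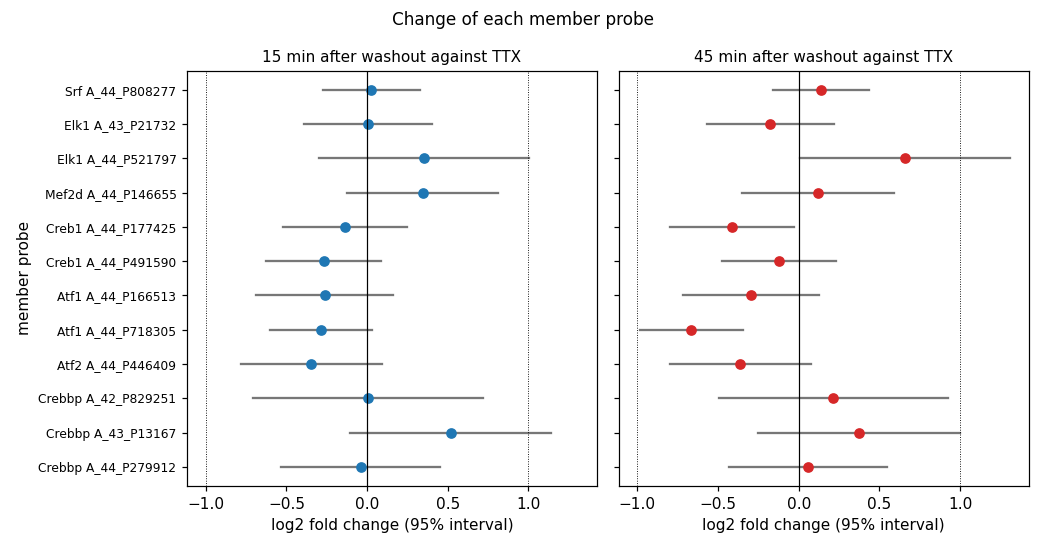
Log2 fold change against TTX (horizontal axis) of each member probe at 15 min (left) and 45 min (right), with 95% intervals of the limma fit as bars; dotted lines mark 2-fold. At 45 min the intervals of Atf1 A_44_P718305, Creb1 A_44_P177425 and Elk1 A_44_P521797 leave out 0, before adjustment for the number of probes.

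The genes that act on these factors were also described, by the brightest kept probe of each gene. Of 35 listed kinases, phosphatases, deacetylases and cofactors, 32 were measured and 0 were called higher or lower by limma at 15 or 45 min. At an unadjusted p under 0.05 there were also 0, against 3.36% of all probes at 15 min and 6.37% at 45 min. Their median difference was 0.06 at 15 min and 0.08 at 45 min. The largest were in Hdac7, a class IIa deacetylase that holds MEF2 inactive, which differed by 0.41 ± 0.19 at 15 min, and Camkk2, a kinase that activates CaMKIV, which differed by 0.40 ± 0.40 at 45 min (log2, SE; limma adjusted p 0.988 and 0.914). Camk2a, the abundant synaptic calcium-dependent kinase, differed by 0.34 ± 0.23 at 15 min (adjusted p 0.988).

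Of 12 further members of the same families, 9 were measured and 0 were called by limma. At an unadjusted p under 0.05 by limma there were 0 at 15 min, against 3.36% of all probes. At 45 min there were 2 higher and 1 lower, against 6.37% of all probes in either direction. Atf3, a stress-induced member of the ATF family, differed by 0.66 ± 0.12 at 45 min and Crem, the cAMP response element modulator, by 0.44 ± 0.14 (log2, SE; limma adjusted p 0.122 and 0.616). Atf7, a relative of Atf2, differed by -1.32 ± 0.35 (adjusted p 0.475).

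Rapid genes known as targets of these factors were described beside the members. Their list was chosen with earlier results of these data known, so the counts are a description and not a test. Of 17 listed, 5 were called higher by limma at 15 min, against 0.0198% of all probes. At 45 min 15 were called higher, against 0.175%, with 0 lower at either time. The 5 called at 15 min were Npas4, Fos, Junb, Egr1 and Egr4. Npas4 entered the fit only through the groups after washout, where it is high; among probes well above background on all 9 arrays, 4 of these genes were called at 15 min and 14 at 45 min. With slide as a fixed block, which leaves 1 TTX array for comparison, 0 of the 17 were called at 15 min. Both comparisons use the same TTX arrays. Fos, an AP-1 subunit whose promoter SRF and CREB both bind, rose 97.4-fold at 45 min, by 6.61 ± 0.33 (log2, SE; limma adjusted p 2.12e-05). Arc, which acts in synaptic plasticity, rose 39.9-fold (limma adjusted p 1e-05), and Egr1, whose promoter is shown above, 18.2-fold (limma adjusted p 8.79e-06).

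Npas4, a neuronal activity-dependent factor, was not well above background on any TTX array. It was at least 19.6-fold higher at 15 min and at least 200-fold higher at 45 min, taken over the lowest signals well above background on those arrays. Egr4 rose 39.4-fold and Junb 34.4-fold at 45 min. Those not called at 45 min were Fosb, at 0.95 ± 0.20, and Per1, at 0.76 ± 0.25 (log2, SE; limma adjusted p 0.224 and 0.655). Among those called, Egr3 had the smallest rise, 2.53-fold.

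**Figure D4:**
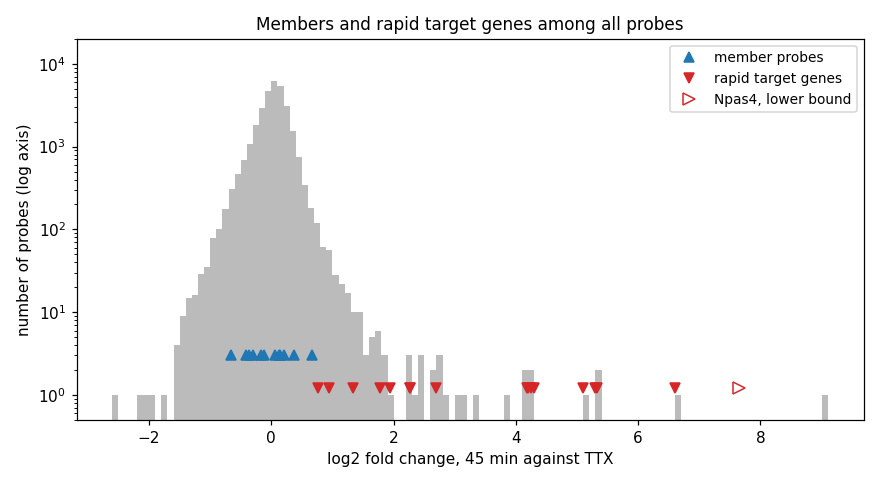
Number of probes (vertical log axis, grey bars of 0.1 log2 units) by log2 fold change at 45 min against TTX (horizontal axis) for all 30321 probes. Triangles mark the 12 member probes, which lie between -0.67 and 0.66, and inverted triangles 16 rapid target genes, which lie between 0.76 and 6.61. The open triangle is the lower bound of Npas4, 7.64, since its TTX signal was not well above background, and the grey bar farthest right is its fitted value; the height of the triangles has no meaning.

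The genes whose pattern over the 9 arrays was most like that of each member were found by Pearson r among 12279 genes with a symbol. This is a description over arrays that share scaling and slides. Each member was taken by the brightest of the probes the files name for it, and the lists hold for that probe only. For Elk1 the other probe correlated with it at r = -0.376, and for Crebbp the others at 0.101 and 0.22. For Srf probe A_44_P808277 they were Notch4 (r = 0.958), Btg1 (0.958) and Dock5 (0.949). For Mef2d they were Itpka (0.972), Dnase2b (0.968) and Bloc1s4 (0.961), and for Creb1 Rab33b (0.967), Yes1 (0.965) and Ipo11 (0.964). For Crebbp they were Tbrg1 (0.967), Pea15 (0.963) and Nkx6-2 (0.94), and for Elk1 Myom3 (0.916), Prkab1 (0.899) and Prss2 (0.888). For Atf1 they were E230034O05Rik (0.947), B3gnt5 (0.911) and Zfp763 (0.907), and for Atf2 Rab9b (0.957), Gabra5 (0.931) and Decr2 (0.925). None of the 17 rapid target genes was among these, but so few genes are listed out of 12279 that this absence carries no information.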

How the data were processed

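Labelling with Cy3 started from 500 ng of total RNA, per the labels' protocols. Agilent's rat design 014879 was used, and Feature Extraction, version 9.5.3.1 per the file headers and 9.5 in the submitters' processing notes, gave the values. Per the file headers, the deposited values are spot intensities with background subtracted and spatial trends removed within each array. The value table of the series holds identical intensity values. Control spots (1639 of 45018) and outlier spots (49 to 111 per array) were left out, spots of a probe were averaged, and log2 of the signal minus the 75th percentile of the array was analysed. A probe entered the fit if every array of some group showed it well above background and at most 1 array lacked a value.

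All 9 arrays were fitted with limma 3.58.1 in R 4.3.3 (packages statmod 1.5.0 and data.table, version 1.17.8) by 1 mean for each group, without covariates, and the 3 comparisons were two-sided moderated tests. The procedure was tested on simulated data. Probes were matched to genes by accession (10735 probes), symbol (5577) or synonym (3727) of the RefSeq table of GRCr8, and 20973 kept their file name. All member probes and, from each list, the genes called (at most 6) and up to 3 more with the largest change are named. The members, lists and tests were chosen with earlier results of these data known. Figures used matplotlib 3.10.9 in Python 3.11.15.

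The groups at 15 and 45 min are called W15 and W45. Of the 3 slides, the first carried 1 array of each group (TTX 1, W15 3 and W45 1), the second both other TTX arrays, and the third the remaining W15 and W45 arrays. Deviations of same-numbered arrays from their group means correlated at 0.31, 0.382 and 0.22 between TTX and W15, which pairs those samples by the rule used, every correlation over 0.1. Alternatives changed the background correction, scaling, filter, spread, samples, slide and replicate block, or left out each array in turn.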

Additional observations from a re-analysis of the deposited data

How the results depend on the processing

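No member probe was called by limma under any alternative run, 22 for each comparison with TTX and 23 for 45 against 15 min, and none of the genes that act on the factors or of the further family members was called either. The smallest adjusted p of a member over these alternatives was 0.548 at 15 min, 0.153 at 45 min (Atf1 probe A_44_P718305, without W45 replicate 1) and 0.376 between 15 and 45 min. That probe stayed below TTX at 45 min in every alternative, by log2 values from -0.93 to -0.60. The named Srf probe turned sign at 45 min with normexp (-0.13) and without scaling (-0.12), while the 3 Srf probes by synonym stayed positive. Their ranges were 0.28 to 0.67 for A_44_P143061, 0.31 to 0.87 for A_43_P10479 and 0.05 to 0.41 for A_43_P15205. Of 270 member values at 45 min, 12 had the opposite sign to the reported one; at 15 min 28 of 270 did.

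The replicate block gave 0 member probes called in each comparison, and 5, 51 and 30 of all probes against 6, 60 and 39 without it. It changed no other call of a member. Same-numbered deviations correlated at 0.232, 0.36 and 0.099 for 45 min with TTX and 0.06, 0.17 and 0.162 for 45 with 15 min.

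The rapid target genes called at 15 min numbered 5, but 2 with normexp, 0 with slide as a fixed block and 2 to 5 with 1 array left out (3, 2 and 3 when TTX replicates 1, 2 and 3 were left out in turn, and 2 for W15 replicate 2). At 45 min they stayed between 13 and 15; for 45 against 15 min they were 12, and 0 on slide 3 alone, with 2 arrays per group. All probes called numbered 0 to 10, 25 to 203 and 0 to 232 over the alternatives, with 203 and 232 both without W45 replicate 1. The median of all probes moved by over 0.1 with normexp, to 0.2 at 15 min and -0.195 between 15 and 45 min, and without scaling, to -0.156 and -0.216 against TTX. The causes were not tested. With slide as a fixed block, values against TTX rest on TTX replicate 1 alone. The number of arrays limits the precision of a member value, whose median SE was 0.191.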
